A study of Mus musculus with 8 samples.

Results

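The genes of mitochondrial oxidative phosphorylation were read here for H3K36me3, histone H3 trimethylated at lysine 36. They were taken by name from the protein-coding genes of GENCODE M21 (mm10) on chromosomes 1 to 19: names starting with Ndufa, Ndufb, Ndufc, Ndufs, Ndufv, Uqcr, Cox4 to Cox8 or Atp5, and Sdha to Sdhd. The rule gave 91 of 20722 genes. Of these, 80 encode subunits: 34 of complex I, 4 of complex II, 8 of complex III, 18 of complex IV and 16 of complex V. A further 8 (the Ndufaf genes) encode assembly factors of complex I. The remaining 3 were Atp5s, the assembly and stabilizing protein gene Cox7a2l, and a second gene entry named Atp5o, a read-through model of 242585 bases that also spans Donson, Cryzl1 and Itsn1. The set was selected on the low density of Cox5a and Cox5b in OSKM against MEF, which was already known when it was proposed, so values of OSKM versus MEF are given as a description.

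The cells were mouse embryonic fibroblasts from an embryo of stage E13.5 that carry a doxycycline-inducible cassette of OCT4, SOX2, KLF4 and MYC (OSKM), a cassette shared by all groups. They were kept for 72 h in medium for induced pluripotent cells. MEF had neither agent, MEF B12 had vitamin B12 at 2 µM, OSKM had doxycycline at 1 µg/ml, and OSKM B12 had both. Doxycycline and the induced factors thus came together, and their parts cannot be told apart. Each of the 4 conditions had 1 H3K36me3 library and 1 input library, all from 1 embryo. Differences between conditions thus rest on single libraries, no p-value is given, and intervals cover counting error only. A library was made from a whole culture, so less mark per cell and fewer cells with the mark cannot be told apart. Wherever 4 values are listed, they stand in the order MEF, MEF B12, OSKM, OSKM B12.

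Complex I takes electrons from NADH and complex II takes them from succinate, complex III passes them to cytochrome c, and complex IV (cytochrome c oxidase) hands them to oxygen. Complexes I, III and IV pump protons, and complex V, the ATP synthase, uses the gradient to make ATP. Most subunits are encoded in the nucleus by short, broadly transcribed genes, and several subunits of complex IV have alternative forms for muscle, testis or low oxygen. H3K36me3 is placed behind elongating RNA polymerase II by SETD2, so it is known for covering the later part of active genes and for being scarce at their promoters.

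The peak lists came from 29046913 to 33399267 H3K36me3 tags a library. Peaks covered 91.8 Mb of the autosomes in OSKM and 150 to 163 Mb in the other libraries, so the OSKM values below stand beside a smaller peak area over the whole genome. All 7 fibroblast markers (Col1a1, Col1a2, Col3a1, Fn1, Thy1, Pdgfrb and Vim) had peaks in every library. Epcam, Cdh1, Nanog, Esrrb, Ptprc, Pecam1 and Cdh5 had none in any, and Zfp42 had 2.42% of its body covered in OSKM alone. The blood marker Cd68 was covered over 76.0 to 100% of its body by peaks that in MEF also touched its neighbour Eif4a1.

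Promoters of these genes are known to be read by NRF1, by the ETS factor GABPA and by YY1. RefSeq promoter windows (GRCm38.p6), 250 bases before to 50 after a start site, matched 73 of the 91 members and 16000 of all coding genes. The windows were searched on both strands for GCATGCGC (NRF1), the same letters preceded by GC (the full NRF1 palindrome, which lies over the former), CCGGAAG (ETS and GABPA) and AAGATGGCG (YY1). The full palindrome was in 7 members (9.59%) and in 1.38% of all windows. GCATGCGC was in 12 members (16.4%) and in 3.77% of all windows. CCGGAAG was in 17 members (23.3%) against 12.5%, and AAGATGGCG in 7 (9.59%) against 2.02%. The median GC content was 58.3% in members and 57.2% in all windows. At least 1 of the motifs was in 30 members (41.1%) against 17.0% of all windows. Upstream bases are shown for 5 members, in lower case with motif matches in capitals: Cox5a and Cox5b, for which the set was proposed; Ndufaf8, which had no peak over its body in OSKM; Ndufa11, the member with the highest change from MEF to OSKM; and Sdhb, the complex II gene with the highest density. The Cox5a sequence lies at chr9:57520982-57521231 and that of Cox5b at chr1:36691237-36691486. Those of Ndufaf8, Ndufa11 and Sdhb lie at chr11:120098684-120098933, chr17:56717512-56717761 and chr4:140961021-140961270. All are on the plus strand.
Cox5a: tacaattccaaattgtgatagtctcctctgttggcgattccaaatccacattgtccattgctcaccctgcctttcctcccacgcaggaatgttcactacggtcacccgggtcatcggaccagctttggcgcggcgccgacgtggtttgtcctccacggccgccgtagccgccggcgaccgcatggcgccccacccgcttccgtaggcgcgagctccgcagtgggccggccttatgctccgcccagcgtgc
Cox5b: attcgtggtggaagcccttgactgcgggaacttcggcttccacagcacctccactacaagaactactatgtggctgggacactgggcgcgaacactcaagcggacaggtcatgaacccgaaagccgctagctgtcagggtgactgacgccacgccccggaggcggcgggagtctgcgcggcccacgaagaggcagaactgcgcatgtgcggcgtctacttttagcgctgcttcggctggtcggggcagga
Ndufaf8: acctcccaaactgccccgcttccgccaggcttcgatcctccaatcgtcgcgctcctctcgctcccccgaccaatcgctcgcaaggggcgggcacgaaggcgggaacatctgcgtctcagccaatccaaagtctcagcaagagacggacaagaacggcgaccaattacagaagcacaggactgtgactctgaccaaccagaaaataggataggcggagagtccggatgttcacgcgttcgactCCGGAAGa
Ndufa11: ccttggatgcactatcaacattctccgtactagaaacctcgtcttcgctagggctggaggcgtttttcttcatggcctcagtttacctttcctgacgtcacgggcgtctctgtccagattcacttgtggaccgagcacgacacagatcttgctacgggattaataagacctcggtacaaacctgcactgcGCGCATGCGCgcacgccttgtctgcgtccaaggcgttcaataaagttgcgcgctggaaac
Sdhb: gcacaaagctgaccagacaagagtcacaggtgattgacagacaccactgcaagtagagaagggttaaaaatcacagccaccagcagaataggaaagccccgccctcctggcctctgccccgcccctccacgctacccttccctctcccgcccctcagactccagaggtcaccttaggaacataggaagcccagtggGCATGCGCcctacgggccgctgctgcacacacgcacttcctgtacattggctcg
The letters searched were absent from these bases of Cox5a and Cox5b. Among the members that passed the coverage filter described below, the 27 with a motif had a median log2 change in density of -0.63 from MEF to OSKM, and the 38 without had -0.78. From OSKM to OSKM B12 the medians were 0.92 and 1.02. These are descriptions of matches, not of sites in use.

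At their median, oxidative phosphorylation genes had a larger share of the body covered by H3K36me3 peaks than most coding genes of their length, in every condition. The coding genes were not limited to transcribed genes, and 9826 of 20722 had no peak in MEF. A peak touched the gene body in 82 members in MEF and 84 in MEF B12, against 79 in OSKM and 82 in OSKM B12. These are 90.1, 92.3, 86.8 and 90.1% of members, against 52.6, 53.4, 49.7 and 53.9% of all coding genes. The members were short: the median body was 7456 bases against 16920 for all coding genes, 60 were under 10 kb and 24 had under 4 exons. Ranked by the share of the body covered among other coding genes of the same length class (under 5, 5 to 10, 10 to 20, 20 to 50, and 50 kb or more), the members stood at a median percentile of 81.6 in MEF and 82.6 in MEF B12, against 83.6 in OSKM and 82.0 in OSKM B12. With only the stronger peaks (−log10 q at or above 5) the OSKM median was 45.9, while the other libraries gave 79.8, 85.4 and 83.9. Ties were ranked at their middle. In OSKM, 5298 of 7428 other coding genes under 10 kb had no peak even with all peaks. A percentile under 50 in those classes thus marks a member with no stronger peak, tied with most genes of its length, and not a member below them.

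**Figure D1:**
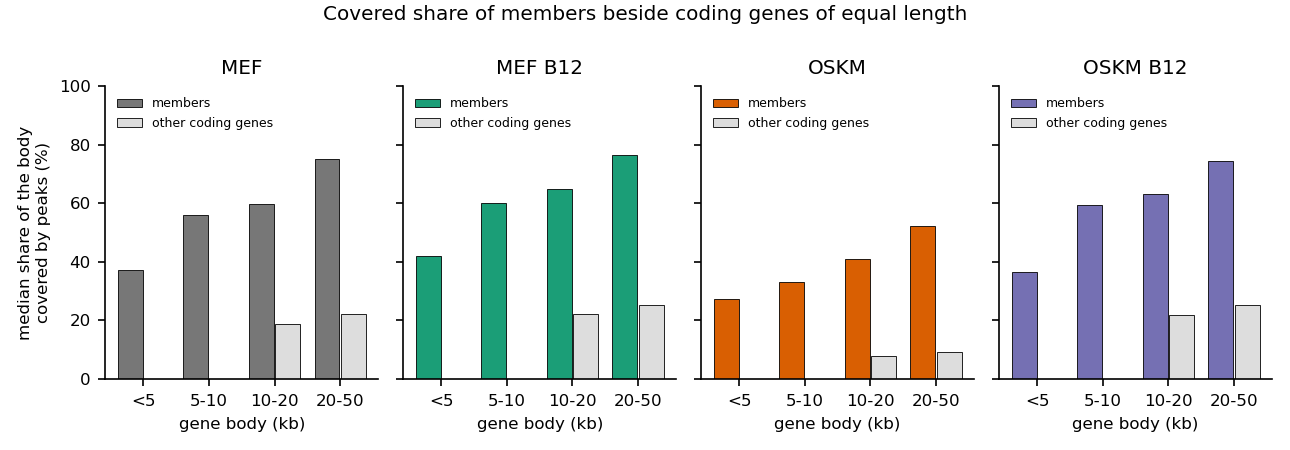
Median share of the gene body covered by peaks (%, vertical axis) by length of the body (kb, horizontal axis), 1 panel per library. Coloured bars are members and grey bars other coding genes. Members of 5 to 10 kb had a median of 55.9% in MEF and 33.1% in OSKM, where the other genes of that length had a median of 0.

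Short members had peaks far more often than short genes in general. Under 5 kb, 25 of 30 members had a peak in MEF and 23 in OSKM, whereas 23.9 and 20.5% of the other genes of that length did. From 5 to 10 kb, 30 of 30 members had a peak in MEF and 29 in OSKM, beside 40.4 and 37.7% of the others. The 4 members of 50 kb or more stood lower, at median percentiles of 31.8, 41.4, 35.2 and 32.9 of their length class. Among them, Ndufs4 and Ndufaf2 were covered over at most 4.38 and 0.521% of their bodies. Cox7b2 had no peak, and the last was the read-through model of Atp5o.

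Levels per base differed between complexes, whose genes also differ in length. Density, the pileup per 1000000 tags in peaks summed over the body and divided by its length, had a median of 0.293 over all members in MEF and 0.344 in MEF B12, against 0.154 in OSKM and 0.336 in OSKM B12. Complex II had the highest median density in every library, with of 0.497, 0.578, 0.310 and 0.585. Its 4 genes make succinate dehydrogenase, which also works in the tricarboxylic acid cycle. Complex V followed with 0.403, 0.469, 0.220 and 0.491, and complex I with 0.298, 0.35, 0.159 and 0.345. Complex III had 0.224, 0.271, 0.149 and 0.289. Complex IV had the lowest median in MEF, OSKM and OSKM B12 and complex III in MEF B12, with 0.160, 0.281, 0.0579 and 0.172 in complex IV, and 6 of its 18 genes had no peak in MEF. This order is not set against length: the median body was 20715 bases in complex II and 2902 in complex IV. Ranked by covered share among coding genes of the same length class, complex V had median percentiles of 90.2, 87.0, 86.9 and 86.6 and complex II 84.9, 83.6, 88.1 and 82.9. Complex III had 83.3, 85.2, 89.4 and 83.2, and complex I 81.0, 82.7, 83.9 and 81.9. Complex IV had 79, 86.1, 74.0 and 80.3, so in MEF B12 it stood above complexes I, II and III.

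Atp5b, the catalytic beta subunit of the ATP synthase, had the highest mean density of complex V. Its values were 0.790 in MEF and 0.99 in MEF B12, against 0.470 in OSKM and 0.924 in OSKM B12. In complex I, Ndufa10 was highest with 0.612, 0.736, 0.379 and 0.756, from 1532 to 2674 estimated fragments. Ndufb3 was the lowest complex I gene that passed the filter, at 0.0307, 0.0621, 0 and 0.111. In both of the high genes OSKM stood lowest and the remaining libraries lay closer together. Uqcrc2, a core protein of complex III, had 0.625, 0.759, 0.395 and 0.742. Uqcr10, a small subunit of the same complex, had 0.130, 0.0299, 0.0530 and 0.0985, and there MEF B12 rather than OSKM was lowest. Sdhb, the iron-sulfur subunit of succinate dehydrogenase, had 0.532, 0.600, 0.347 and 0.642. The lowest complex II gene, Sdhc, which helps anchor the complex in the membrane, had 0.461, 0.556, 0.268 and 0.556. Sdha, the flavoprotein, had 0.571, 0.629, 0.313 and 0.598, and Sdhd, the other anchor, 0.447, 0.538, 0.307 and 0.572.

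**Figure D2:**
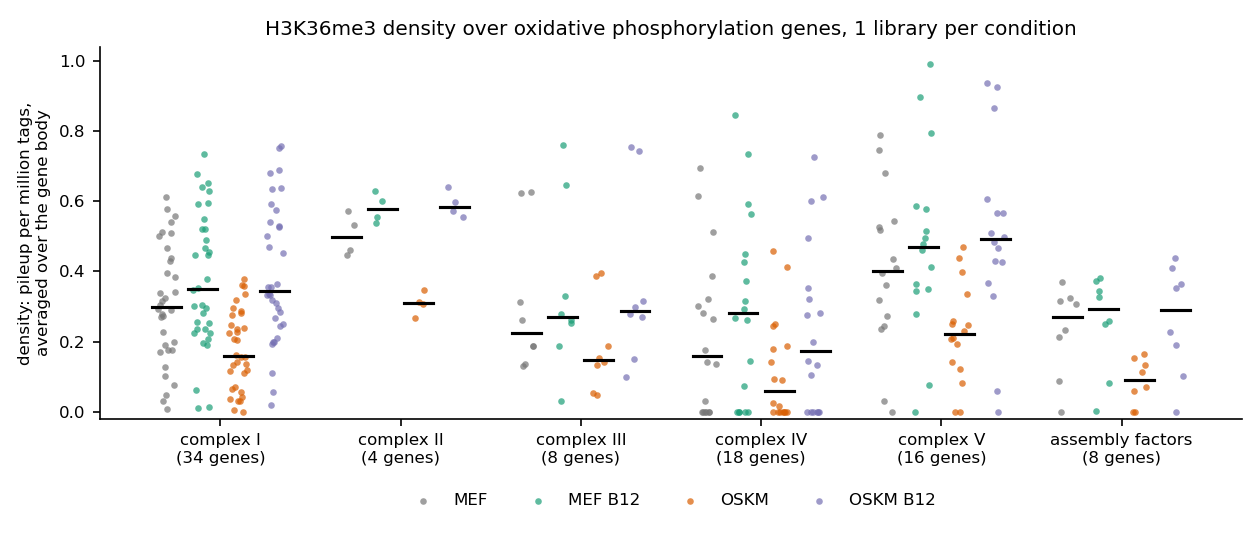
Density (pileup per 1000000 tags averaged over the gene body, vertical axis) of each gene in each library, by complex and for the complex I assembly factors. Points are genes, colours are the 4 libraries and black bars are medians over genes. The OSKM median is the lowest of the 4 in every group, and complex IV holds the most genes at 0.

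Alternative forms of a subunit were not marked alike. Cox4i1, the general form of subunit 4, was covered over 72.0% of its body in MEF and 75.4% in MEF B12, against 71.7% in OSKM and 67.4% in OSKM B12, whereas Cox4i2, the form known from lung and low oxygen, had no peak. Cox6a1 was covered over 33.8, 52.1, 31.4 and 36% and its muscle form Cox6a2 had no peak. Cox6b1 was covered over 82.0, 79.1, 47.6 and 79.5% and its testis form Cox6b2 had none. Cox8a had 24.9, 50, 47.0 and 38.0%, and Cox8c none. Cox7b2 also had none, while the X-linked Cox7b, outside the rule, had 66.9, 53.9, 14.9 and 52.0%. Ndufa4, now counted in complex IV, had 63.5, 66.2, 20.3 and 65.6%, and Ndufa4l2 had 12.1% in MEF B12 alone. That peak ran from 1924 to 4808 bases past its start site, mostly beyond its body of 2188 bases. In MEF, OSKM and OSKM B12 the peaks began beyond the body, at 2696, 2553 and 2310 bases. Shmt2 overlaps Ndufa4l2 on the opposite strand, and its part in the value was not tested. The members with no peak in any library were Cox4i2, Cox6a2, Cox6b2, Cox7b2, Cox8c, Atp5k and Atp5s. Over these bodies enrichment was not detectable at this depth. For Atp5k, subunit e of the ATP synthase, peaks lay just past its body of 1205 bases, starting 1799, 1259, 1830 and 1475 bases from its start site.

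The muscle forms Cox8b and Cox7a1 were the exceptions, and their peaks ran into neighbours. Cox8b had the highest mean density of complex IV, with 93.7, 100, 78.1 and 77.4% of its 1502 bases covered. Its MEF peak reached from 94 to 8249 bases past its start site and covered Psmd13, a proteasome gene that ends 302 bases away on the opposite strand. Cox7a1 was covered over 43.0, 55.4, 39.5 and 46.8%, by a MEF peak from 1075 to 8777 bases that also touched Capns1, 911 bases away on the opposite strand. In both cases the peak reached farther over the neighbour than over the member, and the neighbour's part in the value was not tested. Cox7a2, the general form, had 51.4, 56.0, 20.9 and 47.3% with no other coding gene in its MEF peaks. Cox7a2l, which is not a subunit, had 13.2, 18.3, 5.12 and 14.1%. The genes Atp5g1, Atp5g2 and Atp5g3 encode the same ring subunit of the ATP synthase. In that order they were covered over 53.3, 76.0 and 53.1% in MEF and over 19, 63.6 and 34.4% in OSKM. Atp5l, subunit g, was below the coverage filter used for changes, with 5.69, 10.9, 0.0930 and 8.54%. The read-through model of Atp5o, the lowest complex V entry that passed it, had densities of 0.205, 0.256, 0.105 and 0.273 over a body mostly made of other genes, and Atp5o itself had 0.681, 0.795, 0.438 and 0.938. Across the members, peaks also touched another coding gene in 22 members in MEF and 26 in MEF B12, against 19 in OSKM and 26 in OSKM B12.

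The mark lay late in these short genes and passed their ends. Among members of 2 to 20 kb that passed the filter, the first covered base was a median of 2211 bases from the start site in MEF and 2184 in MEF B12, against 2763 in OSKM and 2260 in OSKM B12. For other coding genes of that length and filter the medians were 2527, 2424, 3016.5 and 2357.5 bases. The other genes in this range were longer, with 2058 of 4158 at 10 to 20 kb against 14 of 63 members. From 5 to 10 kb, where the median lengths were 7330 and 7392 bases, the medians were 2337.5 in members and 2417.5 in others in MEF, and 2763 and 2854.5 in OSKM. From 2 to 5 kb the first covered base lay farther from the start site in members, at 1851 against 1662.5 in MEF. A peak passed the transcript end in 88.9, 93.7, 82.0 and 92.1% of these members, and in 71.3, 73.4, 53.7 and 72.8% of the others. The last peak reached a median of 1765, 1981, 973 and 2052 bases past the end in members, and 843, 962, 121 and 951.5 in the others. From 5 to 10 kb the shares past the end were 85.7, 89.3, 74.1 and 82.1% in members and 71.5, 73.6, 55.5 and 73.1% in others. With the body cut into 10 equal segments, the first was uncovered in all 63 members in all 4 libraries. The third segment was covered over 18.7% in MEF against 31.9% in 4158 other genes, and the last segment over 87.0% against 77.5%. The same order held in OSKM, with 10.4 against 19.7% and 69.1 against 58.9%. From 5 to 10 kb these differences were smaller, with 18.7 against 24.7% and 81.0 against 76.9% in MEF. In OSKM the last segment was then lower in members, with 57.0 against 59.1%.

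**Figure D3:**
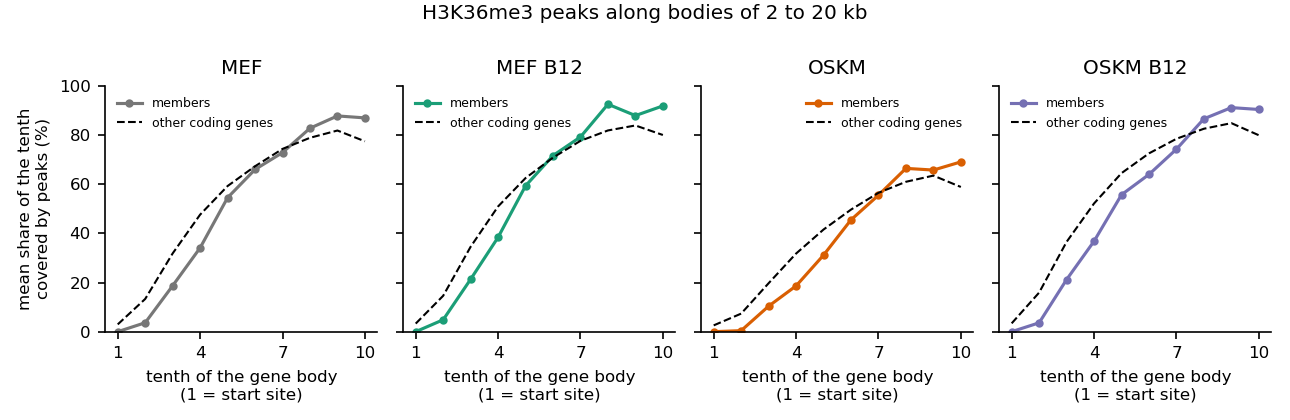
Mean share covered by peaks (%, vertical axis) in each of 10 equal segments of the gene body from the start site to the transcript end (horizontal axis), for bodies of 2 to 20 kb. Coloured lines are the 63 members that passed the filter and dashed lines the 4158 other coding genes, which are longer, 1 panel per library. Members lie below the dashed line in the early segments and above it in the last segment in all 4 libraries.

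OSKM versus MEF asks how the mark stood after induction of the factors. Changes were taken as log2 of density with 0.05 added, in genes covered over at least 10% of the body on average over the 4 libraries. This left 79 of 91 members and 8966 of all coding genes, and a gene covered in a single library could pass only through that library. The median change of the members was -0.74 (quartiles -0.95 and -0.54), beside -0.71 for all coding genes. In 76 of 79, and in 98.4% of all coding genes, the density was lower in OSKM. It fell at least 2-fold in 16 of 79 members and in 19.4% of all coding genes, and since this contrast was in view when the set was proposed nothing is read from that count. Among members under 10 kb it fell at least 2-fold in 10 of 53, beside 21.9% of coding genes of that length. The medians of the complexes lay between -0.62 (complex II) and -0.73 (complex V). The 7 assembly factors that passed had a median of -1.11, and 4 of them fell at least 2-fold.

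Cox5b (ENSMUSG00000061518, chr1:36691484-36693681) had the lowest change of all members. Cox5a and Cox5b both encode nuclear-encoded subunits of cytochrome c oxidase. Of its 2198 bases, 50.6% were covered in MEF and 41.8% in MEF B12, against 3.73% in OSKM and 31.9% in OSKM B12. OSKM stood apart from the other libraries. The densities were 0.282, 0.261, 0.0175 and 0.2, and the ratio of OSKM to MEF was 0.0623, from 4.47 estimated fragments against 69.1. The set was proposed on this fall, so the ratio is a description and no interval is given. The 4.47 is no count, since the mean pileup of the whole OSKM peak was applied to its few bases inside the body. On the log2 scale with 0.05 added the change was -2.30. The peak itself was not absent from OSKM. It ran from 1085 to 3391 bases past the start site in MEF, from 1280 to 3765 in MEF B12, from 2116 to 4013 in OSKM and from 1496 to 4249 in OSKM B12. The transcript ends at 2198, so in OSKM the peak lay almost wholly past the end, with a pileup per 1000000 tags of 0.470 against 0.556 in MEF. With the body extended by 2 kb the log2 change was -0.44.

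Cox5a (ENSMUSG00000000088, chr9:57521279-57532426) was also lowest in OSKM. Of its 11148 bases, 27.7% were covered in MEF and 25.8% in MEF B12, against 5.08% in OSKM and 27.1% in OSKM B12, and again only OSKM was low. The densities were 0.136, 0.144, 0.0240 and 0.144, the OSKM to MEF ratio was 0.176 and the log2 change was -1.33, as a description for the same reason as in Cox5b. The first covered base lay 6897 bases from the start site in MEF and 7756 in MEF B12, against 10161 in OSKM and 7817 in OSKM B12. Over the 525 bases covered in all libraries, the pileup per 1000000 tags was 0.631, 0.639, 0.473 and 0.582. The log2 change was -0.96 with the body extended by 2 kb. Cox5a lay at percentile 54.1 of its length class in MEF and Cox5b at 90.1.

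**Figure D4:**
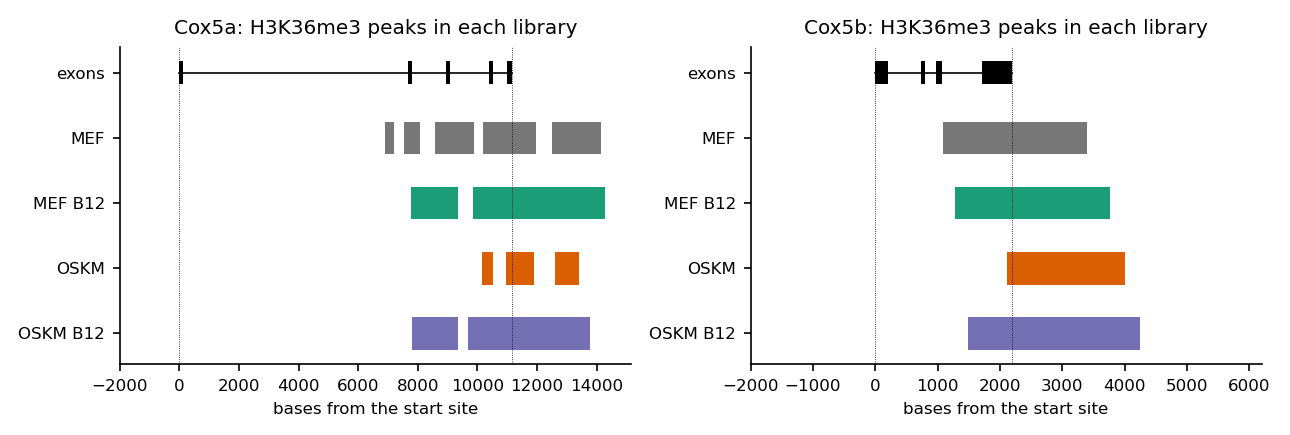
Exons (black) and H3K36me3 peaks (coloured, 1 row per library) of Cox5a and Cox5b by distance from the start site in bases (horizontal axis), with dotted lines at the start and the transcript end. In OSKM the first peak base lies at 10161 in Cox5a and 2116 in Cox5b, farther from the start site than in the other libraries.

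The next lowest changes were in complex I. Ndufa13, also known as GRIM-19, had densities of 0.199, 0.196, 0.0309 and 0.194, a log2 change of -1.62. Its body overlaps Yjefn3 and Tssk6. Ndufa5 had 0.176, 0.237, 0.0300 and 0.250 (-1.50) and Ndufc1 0.279, 0.447, 0.0700 and 0.319 (-1.45). Ndufaf8, which serves complex I assembly, had 0.0866, 0.0830, 0 and 0.101 (-1.45), and its MEF value rests on 17.2 estimated fragments. The log2 change of a gene at 0 in a library, as here and in Cox7c, depends on the 0.05 added and is no bound. In each of these genes OSKM was the lowest library. At the other end were 3 members with a higher density in OSKM, though in each the sign turned with the body extended by 2 kb. Ndufa11, a membrane subunit of complex I, had 0.0773, 0.226, 0.118 and 0.211 (log2 change 0.40, ratio 1.53 with a 95% interval of 0.999 to 2.36). Cox8a had 0.143, 0.317, 0.189 and 0.277 (0.31) and Ndufb4 0.127, 0.207, 0.132 and 0.198 (0.04). In these 3 genes MEF was the lowest library. With the body extended by 2 kb the log2 changes were -0.19 in Ndufa11, -0.40 in Cox8a and -0.31 in Ndufb4. Over bases covered in all 4 libraries they were 0.031, -0.52 and -0.47.

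The edge of the called peaks also differed between OSKM and MEF, and its relation to the density was not tested. Called peaks were shorter in OSKM in general, with a median length of 773 bases against 958 in MEF. In 51 of the 61 members of 2 to 20 kb with a peak in both libraries, the first covered base was farther from the start site in OSKM than in MEF, by a median of 359 bases over the 61. In other coding genes of 2 to 20 kb, which were longer, the share was 73.5% and the median shift 305 bases. Over the bases covered in all 4 libraries (74 members with at least 200 such bases, 354.6 kb), the members' mean pileup per 1000000 tags was 0.678 in MEF and 0.774 in MEF B12, against 0.508 in OSKM and 0.802 in OSKM B12. All coding genes had 0.669, 0.761, 0.505 and 0.794 over theirs. Each base weighs alike in these means, and 48546 of the members' bases came from the read-through model of Atp5o. Medians over genes were 0.645, 0.730, 0.506 and 0.758 in members, and 0.605, 0.679, 0.475 and 0.703 in all coding genes. On the bases covered in all 4 libraries the median log2 change of the members was -0.39, and none fell at least 2-fold, beside 0.0648% of all coding genes.

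OSKM B12 versus OSKM asks what B12 changed during induction, and it shares the OSKM library with the comparison above. Density was higher in OSKM B12 in 78 of 79 members and in 99.7% of all coding genes. The median log2 change was 0.99 for the members and 0.99 for all coding genes. It rose at least 2-fold in 38 of 79 members, beside 48.3% of all coding genes, and in 26 of 53 members under 10 kb, beside 45.9% of coding genes of that length. The members' share was thus near the background. By complex, 16 of 32 genes rose at least 2-fold in complex I, 0 of 4 in complex II and 1 of 8 in complex III. In complex IV 6 of 12 did so, and in complex V 9 of 14. Density was higher in OSKM B12 in all of these genes of complexes I, II, III and V and in 11 of 12 of complex IV. Without division of the pileup by tags, 24 members rose at least 2-fold, beside 29.3% of all coding genes.

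The highest changes were 1.91 in Ndufa5, 1.89 in Cox5b and 1.87 in Cox7c. For Ndufa5 the ratio of densities was 8.33 (95% interval 5.76 to 12.4). Ndufa5 was picked on this change, and the interval does not allow for that. Its log2 change was smaller with the body extended by 2 kb (1.38). Over the 661 bases of Ndufa5 covered in all 4 libraries it was 0.46. Cox7c, a small subunit of complex IV, had densities of 0.0300 in MEF and 0.294 in MEF B12, against 0 in OSKM and 0.133 in OSKM B12, so both B12 libraries were above their partners without B12. The first covered base of Cox7c lay 1988 bases from the start site in MEF and 1172 in MEF B12, of a body of 2089, and in OSKM its peak began past the end, at 2298. The lowest changes were -0.31 in Cox6c, 0.32 in Ndufb7 and 0.38 in Cox4i1. Cox6c, another complex IV subunit, was the exception with a lower value in OSKM B12: its densities were 0.177, 0.267, 0.142 and 0.105, and OSKM B12 over OSKM gave 0.740 (95% interval 0.536 to 1.02). Its MEF peaks also touched Vps13b, whose part in the value was not tested. The sign of the Cox6c change turned with the body extended by 2 kb (0.41) and over the bases covered in all 4 libraries (0.19). Ndufb7 had 0.270, 0.256, 0.239 and 0.311, libraries that lay close together.

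MEF B12 versus MEF asks what B12 changed without the factors. The median log2 change was 0.23 for the members and 0.21 for all coding genes, and 71 of 79 members and 91.9% of all coding genes were higher in MEF B12. Density rose at least 2-fold in Cox7c (2.10, from 6.99 to 61.2 estimated fragments) and Ndufa11 (1.12, ratio 2.92). This was 2 of 79 members, beside 0.848% of all coding genes. Both are short, and under 10 kb the count was 2 of 53 members beside 2.84% of coding genes. With the body extended by 2 kb no member rose at least 2-fold. Cox8a followed with 0.93. Cox7c and Ndufa11 were named for these changes, so the values are a description and no interval is given. The 6.99 is no count, since the MEF peak of Cox7c began 1988 bases from the start site, of a body of 2089. The filter used the mean over the 4 libraries, so the high MEF B12 coverage helped Cox7c to pass it. The lowest changes were -1.17 in Uqcr10 and -0.09 in both Ndufa3 and Cox5b. In Uqcr10 the first covered base lay 1716 bases from the start site in MEF and 2247 in MEF B12, of a body of 2370, and with the body extended by 2 kb the log2 change was 0.04. The B12 change was larger in OSKM than in MEF in 74 of 79 members and in 98.4% of all coding genes, a difference that was not tested.

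OSKM B12 versus MEF B12 sets cells with doxycycline beside cells without it, with B12 present in both. The median log2 change was 0.02 for the members and 0.06 for all coding genes, with 35 members lower and 44 higher. Density fell at least 2-fold in 1 of 79 members, beside 0.301% of all coding genes and 1.05% of those under 10 kb. The member was Cox6c (-1.03, ratio 0.392), picked out by this change, so no interval is given. Complex IV stood to the low side. In 11 of its 12 genes the density was lower in OSKM B12, with a median log2 change of -0.23, while 10 of 32 complex I genes and 3282 of 8966 coding genes were lower. Cox7c (-0.91), Cox7a2 (-0.52), Cox5b (-0.32) and Cox6a1 (-0.31) followed Cox6c, and Cox6b1 was at 0.02. This count was picked out after its values were seen. It narrowed to a median of -0.05 with bodies extended by 2 kb, and over bases covered in all 4 libraries 5 of 10 complex IV genes were lower, with a median of -0.00139. Uqcr10 was highest, at 0.90, and its MEF B12 value rests on a peak edge. That peak began 2247 bases from the start site, of a body of 2370.

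**Figure D5:**
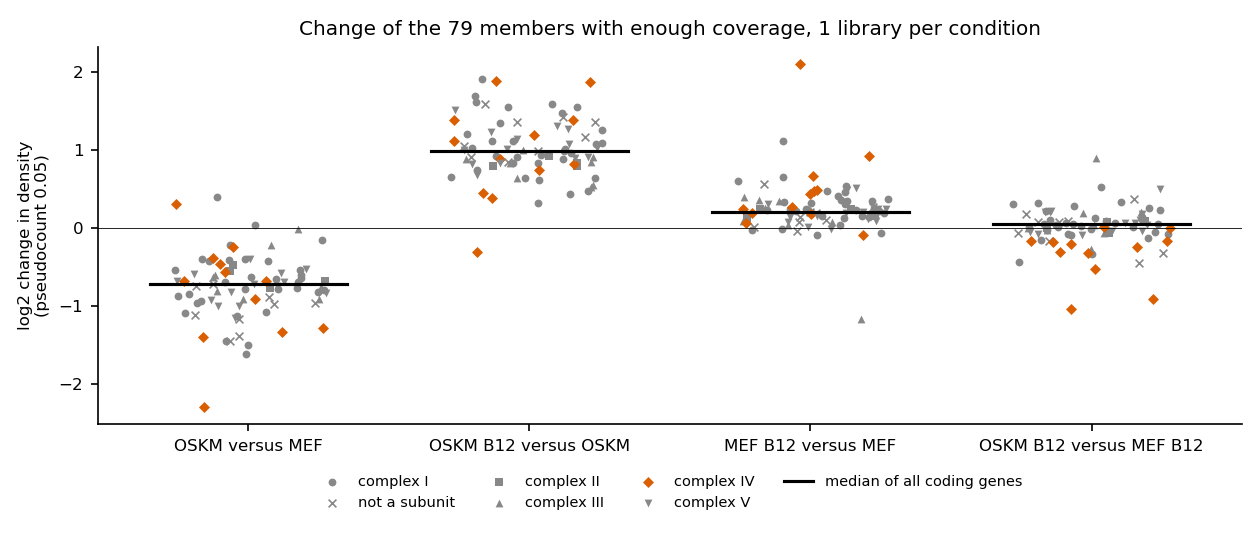
Log2 change in density with 0.05 added (vertical axis) of the 79 members that passed the filter, in the 4 comparisons (horizontal axis). Symbols give the complex, complex IV is orange, and black bars are medians of all coding genes. Members scatter around the bar in each comparison, and 11 of 12 complex IV genes lie below 0 in OSKM B12 versus MEF B12.

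Set side by side, OSKM was the lowest of the 4 libraries in 74 of 79 members and in 98.2% of all coding genes that passed the filter. The highest was OSKM B12 in 43 members, MEF B12 in 32 and MEF in 4. OSKM B12 stood above MEF in 69 of 79 members and in 92.2% of all coding genes.

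Genes that work with the members were read from MEF to OSKM and from OSKM to OSKM B12. All coding genes had medians of -0.71 and 0.99, with 19.4 and 48.3% past 2-fold. Of 38 further assembly factors, 30 passed the filter, with median log2 changes of -0.84 from MEF to OSKM and 1.07 from OSKM to OSKM B12, and 9 and 18 of them past 2-fold. Of 13 tricarboxylic acid cycle enzymes, 12 passed, with medians of -0.67 and 0.91 and with 2 and 5 past 2-fold. Of 13 regulators of these genes, 11 passed, with medians of -0.72 and 0.91 and with 2 and 4 past 2-fold. Ppargc1a, the coactivator known for mitochondrial biogenesis, had no peak in any library, and Ppargc1b was covered over at most 2.75% of its body. The 7 complex I core genes, which hold the redox centres, had medians of -0.80 and 0.99, with 2 and 3 past 2-fold. Of subunit and carrier genes outside the rule, Cycs, which encodes cytochrome c, was covered over 38.8% in MEF and 47.6% in MEF B12, against 0% in OSKM and 46.9% in OSKM B12. Cyc1, the cytochrome of complex III, had 31.5, 45.5, 32.0 and 50.8%. The X-linked Ndufa1 had 18.7, 2.54, 0 and 37.5%, and Ndufb11 8.76, 11.5, 0 and 5.62%.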

How the data were processed

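H3K36me3 ChIP–seq was analysed from 4 deposited lists of broad peaks, 1 library per condition, each called by the authors against its own input. Reads had been aligned by the authors to mm10 using bowtie (0.12.9 in the submitters' processing notes), duplicates removed and peaks called with MACS2 2.2.6 at q-value cut-offs of 0.05 and 0.1 and an effective genome size of 3209286105. The pileup deposited is a signal, namely the mean fragment coverage of a whole peak. Fold enrichment, computed by the authors, is a ratio to what the local input predicts. Each deposited peak also carries a −log10 p-value and a −log10 q-value. The label protocol names the antibody H3K3me3 while the sample tag names H3K36m3, and the study's methods give doxycycline as 1 mg/ml.

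From these, the covered share and the density of each gene body (longest protein-coding transcript, GENCODE M21) were obtained in Python 3.11 (numpy 2.4.6, scipy 1.17.1), and figures were drawn with matplotlib 3.10.9. The pileup was divided by the tags of the library, times 1000000, and summed over covered bases. A peak's mean pileup was thus applied to the part inside the gene. Log2 changes had a pseudocount of 0.05, which makes changes of genes with little signal smaller, and genes with a mean covered share under 10% were left out. Estimated fragments were pileup summed over covered bases and divided by the fragment length, with 95% Poisson and binomial intervals for counting error only. A gene with no peak had no enrichment detectable at this depth, and no ratio was given against it. Interval arithmetic was tested on simulated data in 200 random cases, of which 0 differed from a count base by base.

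The members, gene lists and alternatives were chosen with earlier results of these data known. Genes were named by rule: Cox5a and Cox5b, the highest and lowest density of each complex, the extreme changes of each comparison, members with no peak, alternative forms of a subunit, and Sdha to Sdhd. Genes with extreme changes were picked on those changes, and an interval given for one does not allow for this. Alternatives changed the peak threshold, gene set, gene body, scaling, pseudocount and filter. Reads between peaks were not analysed here.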

Additional observations from a re-analysis of the deposited data

Results flagged for a closer look

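Each of the following had 1 library on either side, and no difference between groups was tested. The median log2 change in density over the members was -0.74 from MEF to OSKM and 0.015 from MEF B12 to OSKM B12. The second had quartiles of -0.08 and 0.12, with 35 members lower and 44 higher, and is not read as a change of opposite sign. All coding genes had -0.71 and 0.06. Among the named genes, B12 went with opposite signs in MEF and OSKM in 7. Uqcr10 had -1.17 in MEF and 0.53 in OSKM, and Cox6c had 0.48 and -0.31. Cox5b had -0.091 in MEF and 1.89 in OSKM, Ndufa13 had -0.017 and 1.59, and Ndufaf8 had -0.039 and 1.59. Ndufb7 had -0.064 and 0.32, and Ndufa3 had -0.094 and 0.47. Over the 79 members that passed the filter, 9 had opposite signs, and over all coding genes 8.18% did. With the body extended by 2 kb, 1 of the 7 named genes (Ndufaf8) still had opposite signs. Over bases covered in all 4 libraries 4 of the 7 had a value, and of these Cox6c alone had opposite signs, both of them turned (-0.018 and 0.19). Ndufa13, Ndufb7 and Ndufa3 were then higher in MEF B12, by 0.24, 0.10 and 0.16.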

How the results depend on the processing

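No paired analysis was possible because there was a single library for every condition. The median log2 changes kept their sign under all alternatives run (0 of 44 turned), and 78 of 116 values of the medians, counts and percentiles stayed within the 95% binomial interval of the median over members or within 1.5 times the count. With only the stronger peaks (−log10 q at or above 5), the medians were -2.51 for OSKM versus MEF and 2.86 for OSKM B12 versus OSKM. Over all coding genes these medians were -2.14 and 2.72. The counts past 2-fold were 46, 58, 9 and 3 of 64 in the order of the report. Of all coding genes, 74.9, 89.9, 10.7 and 1.89% were past 2-fold. The percentiles were 45.9 in OSKM and 83.9 in OSKM B12. Over bases covered in all 4 libraries, the medians were -0.39, 0.64, 0.17 and 0.069 and the counts 0, 2, 0 and 0 of 74. The shares of all coding genes were then 0.0648, 1.34, 0.0216 and 0%. With a pseudocount of 0.2, the first 3 medians were -0.49, 0.67 and 0.18 and the counts 1, 0, 1 and 0. The shares of all coding genes were 0.926, 2.97, 0.134 and 0.0558%. With the pileup not divided by tags, OSKM B12 versus OSKM gave 0.83 and 24 members, MEF B12 versus MEF 0.077 and 1, and OSKM B12 versus MEF B12 0 members. Shares of all coding genes in these 3 were 29.3, 0.669 and 0.279%. With bodies extended by 2 kb, MEF B12 versus MEF and OSKM B12 versus MEF B12 counted 0 and 0, beside 0.540 and 0.119% of all coding genes. The percentiles were then 86.6 in MEF B12 and 84.9 in OSKM B12. With genes of at least 4 exons, the percentiles were 76.1, 74.5, 73.8 and 73.4, and MEF B12 versus MEF counted 1, beside 0.472% of such coding genes. With no filter, OSKM B12 versus MEF B12 counted 2, beside 0.323% of all coding genes. Of single genes past 2-fold, Atp5g1 turned to 0.052 for OSKM versus MEF and Cox6c to 0.00159 for OSKM B12 versus MEF B12 over shared bases, and Uqcr10 turned to 0.040 for MEF B12 versus MEF with the extended body. Smaller changes also turned: of the values of named genes over the 4 comparisons, 20 of 136 changed sign with the extended body and 20 of 116 over shared bases, 11 and 12 of them in OSKM B12 versus MEF B12. The complex IV count was run under the same alternatives after its values were seen. A higher pseudocount makes changes smaller by construction. Shared bases are only those still called in OSKM, and why the changes over them were smaller was not tested. Depth sets the weakest enrichment that could be called: the lowest pileup of a called peak was 8 or 9.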
